A study of Mus musculus with 22 samples.

Results

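Open chromatin of hepatocyte nuclei from fibrotic livers of mice on the CDAHFD, a choline-deficient and amino acid-defined high-fat diet, was compared with that of control livers. The comparison was chosen by the label of each library and uses 7 of the 22 ATAC-seq libraries of the series: 3 advanced and 4 control, each from a different mouse. All mice were male HEP-INTACT mice, in which the nuclei of hepatocytes carry a tag that allows them to be pulled out of a liver homogenate. The sources used here do not give the alleles of this line, the promoter that drives the tag, or the strain and age of the mice. Advanced mice ate the CDAHFD for 7 weeks and had steatosis, inflammation and marked fibrosis on histology, while a low-fat diet was fed to control mice for 7 weeks. A mild group of 4 mice on the CDAHFD for the same 7 weeks had steatosis and inflammation without marked fibrosis. A parallel arm on an FPC diet, fed for 20 weeks with its own low-fat controls, gave 3 advanced, 4 mild and 4 control libraries. ATAC-seq maps open DNA by letting a transposase insert adapters where nucleosomes leave room, so it measures accessibility and not transcription.

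Choline is a building block of phosphatidylcholine, the main phospholipid of the lipoproteins that carry triglyceride out of the liver. Hepatocytes can also make phosphatidylcholine by methylating phosphatidylethanolamine with methyl groups from S-adenosylmethionine. Where both sources run short, triglyceride stays in the cell, and the CDAHFD is used as a model in which steatosis moves on to inflammation and fibrosis. Hepatocytes do not make the bulk of the scar, which comes from stellate cells, but injured hepatocytes are known to lose parts of their mature programme and to switch on genes of the biliary lineage.

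The 68827 peaks of 200 bp held 6.08 to 9.24 counts, in units of 1e6, per advanced library and 5.95 to 8.39 per control library. Signal is given as CPM, counts per 1e6 counts of the library after TMM scaling. Across peaks, Pearson's r between log2 CPM of library pairs lay between 0.956 and 0.960 among advanced libraries, between 0.925 and 0.965 among controls and between 0.603 and 0.669 across the groups, which describes peaks and not independent replicates. The share of counts in peaks within 1 kb of a transcription start was 43.9% to 46.2% in advanced, 40.6% to 41.7% in control and 42.5% to 44.6% in mild libraries, and the part of this shift in the results below was not tested. Hepatocyte markers were measured for 20 of 20 genes, and their summed signal was 4195 to 4846 CPM in control and 3649 to 4108 CPM in advanced libraries. Of the stellate cell markers 5 of 22 had a peak, with a sum of 68.7 to 81.4 CPM in control and 80.2 to 86.3 CPM in advanced libraries. No peak was listed for the stellate markers Lrat, Des, Acta2 and Pdgfrb. Of the macrophage markers 8 of 22 had a peak, with a sum of 123.6 to 132.2 CPM against 132.3 to 147.2 CPM, with none listed for Cd68, Clec4f or the C1q genes. Of the endothelial markers 16 of 21 had a peak, summing to 437 to 495 CPM in control and 414 to 448 CPM in advanced libraries, with none for Tek or Eng. Of the lymphocyte markers 6 of 22 had a peak, with a sum of 383 to 430 CPM against 317 to 345 CPM, and none was listed for the CD3 genes. Of the single markers, Adgre1 of macrophages held 6.82 to 8.30 CPM in control and 7.05 to 9.10 CPM in advanced libraries, and Csf1r 4.12 to 8.02 CPM against 11.7 to 14.1 CPM. The leukocyte gene Ptprc held 23.7 to 32.9 CPM against 12.9 to 20.0 CPM, and the endothelial genes Pecam1 and Stab2 33 to 47.1 and 68.9 to 92.7 CPM against 37 to 44.5 and 59 to 72.8 CPM. Over its peaks within 10 kb alone, Pecam1 rose by 3.63 (adjusted p = 3.58e-08, edgeR), while over all its peaks it was not called. Cholangiocyte markers stood apart: 18 of 20 had a peak and their sum was 887 to 949.8 CPM in control and 1082 to 1139 CPM in advanced libraries. Their part in the results was not tested, and a change in the mix of nuclei cannot be told apart from a change within hepatocyte nuclei. P-values below measure the spread between mice, estimated over all 22 libraries of the series.

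More than 1 in 2 peaks differed between advanced and control livers, with about as many higher as lower. In edgeR's quasi-likelihood test at a Benjamini-Hochberg adjusted p under 0.05, the threshold for every call below, 38233 of the 68827 peaks were called (55.5%). Of all peaks, 18382 were higher (26.7%) and 19851 lower (28.8%). A called change of more than 2-fold was seen in 8326 higher peaks (12.1%) and 6437 lower peaks (9.35%). When counts were summed per gene over all peaks whose nearest start lay within 50 kb, 9173 of 15686 genes were called (58.5%), 4466 higher (28.5%) and 4707 lower (30%). The median log2 change was -0.03 over peaks and -0.01 over genes. With changes this broad, a list of genes is read against these percentages. Many genes below were named for a small p, so a lack of overlap between their groups is no further result. The share of all genes without overlap is not given here. The median moved with the scaling, to at most 0.08 over genes. The split between higher and lower genes moved with scaling and tool. In edgeR with the scaling of the peaks, 5248 genes were higher and 3781 lower. With limma on the log2 of the deposited normalized signal + 1, which changes test and scaling together, 5559 genes were higher and 3364 lower, 62.3% higher among the called against 48.7% in edgeR.

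Peaks at promoters were mostly higher where they were called, and distal peaks mostly lower. Among called changes of more than 2-fold, gains outnumbered losses at each step of distance up to 50 kb. Of 15589 peaks annotated as promoter-TSS, 33.8% were higher and 12.3% lower, with a median log2 change of 0.12. Their changes were small: 6.06% were higher and 1.35% lower by more than 2-fold, and the median signal was 18.5 CPM in control and 19.7 CPM in advanced libraries. In first introns 24.3% of peaks were higher and 29.5% lower, in later introns 23.8% and 36.7%, and in exons 18.4% and 37.5%. By more than 2-fold, 12.2% of first intron peaks were higher and 7.97% lower, and 14.4% and 13% in later introns. Exons leaned to loss there too, at 8.14% and 12.2%. Between 10 and 50 kb from a start the shares above 2-fold were 15.7% higher and 11.9% lower. Of 21077 intergenic peaks 25.9% were higher and 34.8% lower, and changes of more than 2-fold were more evenly split there, at 15.2% higher and 13.4% lower. The share of lower peaks climbed with each step of distance from the start, from 11.1% within 0.1 kb to 34.4% between 10 and 50 kb and 47.1% beyond 100 kb. Beyond 100 kb the median log2 change was -0.37, and 22.2% of the 5547 peaks were lower by more than 2-fold against 12.5% higher. By chromosome, peaks on 19 (34.9% higher, 17.9% lower), 11 (34.3% and 20.2%) and 7 (34.1% and 22.4%) leaned to gain. The share of lower peaks was largest on 13 (22.1% higher, 34.5% lower), 10 (22.6% and 33.5%), 1 (22.5% and 33.1%) and 18 (21.6% and 33.1%). On X fewer peaks were higher (18.8%), and the share of lower ones, 29.6%, was close to the 28.8% of all peaks.

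**Figure D1:**
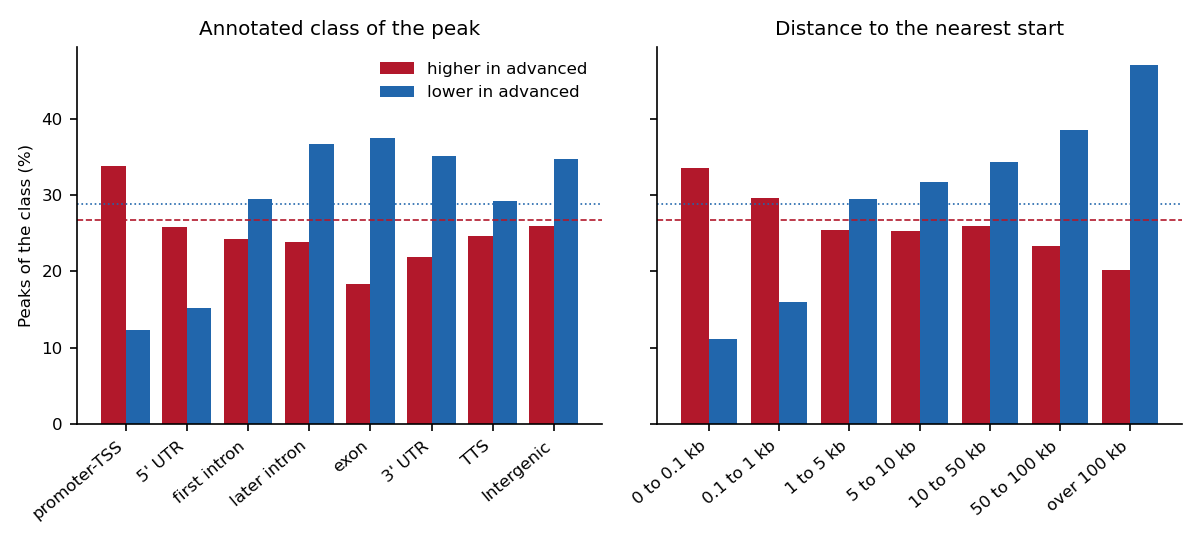
Share of peaks (y axis, percent of the class) called higher (red) or lower (blue) in advanced against control CDAHFD livers, by annotated class (left) and by distance to the nearest start (right). Dashed red and dotted blue lines mark all peaks, at 26.7% and 28.8%. Promoter-TSS peaks were 33.8% higher and 12.3% lower, and peaks beyond 100 kb 20.2% higher and 47.1% lower.

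Some regions went from nearly closed to open. In 921 peaks every control library was under 1 CPM and every advanced library above 5 CPM, and in 85 peaks the reverse held. Within 1 kb of a start lay 5.65% of the newly open and 5.88% of the newly closed peaks. Of all 68827 peaks, 9587 lay within 0.1 kb of a start and 10485 between 0.1 and 1 kb. The limit of 1 CPM by itself favours peaks of low signal, and promoter-TSS peaks had a median of 18.5 CPM in controls. The low share near starts is thus partly set by the choice. The newly open peaks had a median of 3.38 CPM in mild and 7.96 CPM in advanced CDAHFD livers, and of 7.61 CPM in advanced FPC livers, whose mice and controls played no part in choosing them. The newly closed peaks had a median of 1.5 CPM in mild livers.

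The peaks named next were taken in order of fold from called peaks whose mean signal over all 22 libraries was above the median, whose groups did not overlap and whose nearest start lay within 50 kb, 1 per gene. Peaks of lower signal held larger folds, such as one upstream of Osbpl3 with a log2 change of 6.89. The largest gain within these limits lay at chr9:96650049-96650249 of mm10, an intergenic site 18646 bp upstream of Rasa2, which encodes a GTPase-activating protein for Ras. It held 0.847, 0.449, 0.475 and 0.170 CPM in the 4 control libraries and 37.7, 48.1 and 37.3 CPM in the 3 advanced ones, a log2 change of 6.30 ± 0.26 (SE, n = 3 against 4). The groups did not overlap, as the choice required, and the mild mean, 15.2 ± 2.17 CPM (SD, n = 4), lay between them. Control counts at such sites were few (13.5 in all 4 libraries here), so the size of the largest folds rests on few reads and their SE can be too small. An intergenic peak 7429 bp upstream of Agfg1, a gene of vesicle trafficking, at chr1:82831931-82832131, went from 0.282, 0.449, 0.238 and 1.02 CPM to 34.2, 42.4 and 37.8 CPM, a log2 change of 6.30 ± 0.28. Another intergenic site, at chr8:84192070-84192270, 13209 bp from the start of Mir181c, changed by 6.23 ± 0.27. Other gains were a peak whose nearest start, 19608 bp away, is that of Pgm1 (6.02 ± 0.25), which encodes phosphoglucomutase, and an intron peak of Gpat3 (5.35 ± 0.22), whose product adds the first fatty acid in triglyceride synthesis. At the Gpat3 peak, chr5:100861865-100862065 in intron 3, the controls held 0.340 to 0.897 CPM and the advanced libraries 23.2 to 30.3 CPM. The other 5 of the 10 gains chosen this way, near 9130401M01Rik, BC003331, Mir1953, Tbc1d31 and Kcnab1, ranged down to 5.14 ± 0.25 at Kcnab1, a potassium channel subunit.

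Among the losses, an intronic peak of the noncoding gene Gm30332 at chr6:138455826-138456026 went from 26.3, 27.7, 25 and 31.2 CPM to 1.39, 0.668 and 1.28 CPM, a log2 change of -4.55 ± 0.21. A peak 4560 bp from the start of Dkk4, which encodes a secreted antagonist of Wnt signalling, lies in the last intron of its neighbour Polb, a DNA polymerase. This peak, at chr8:22628503-22628703, held 20.6, 15.3, 16.9 and 18 CPM in control and 0.748, 0.334 and 1.14 CPM in advanced libraries, and fell by 4.51 ± 0.30. In both peaks every advanced library was below every control, which was a condition for being named. A peak in intron 1 of Camk2b, a calcium-dependent kinase, fell by 4.17 ± 0.24, and one in intron 1 of Prex1, a Rac activator, by 3.64 ± 0.29. The peak at chr13:24446221-24446421, in intron 11 of Cmah, which makes N-glycolylneuraminic acid, held 38.4, 38.3, 38 and 31.9 CPM in control and 3.63, 3.34 and 3.98 CPM in advanced libraries. It fell by 3.32 ± 0.24 on the CDAHFD, against a log2 change of -1.05 ± 0.21 in advanced FPC livers, and the difference between diets was called (adjusted p = 0.00059, edgeR). The other losses, near Gm13547, A930013F10Rik, Pard3b, Trhde and Gm12718, reached down to a fall of 3.31 ± 0.23 at Gm12718.

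**Figure D2:**
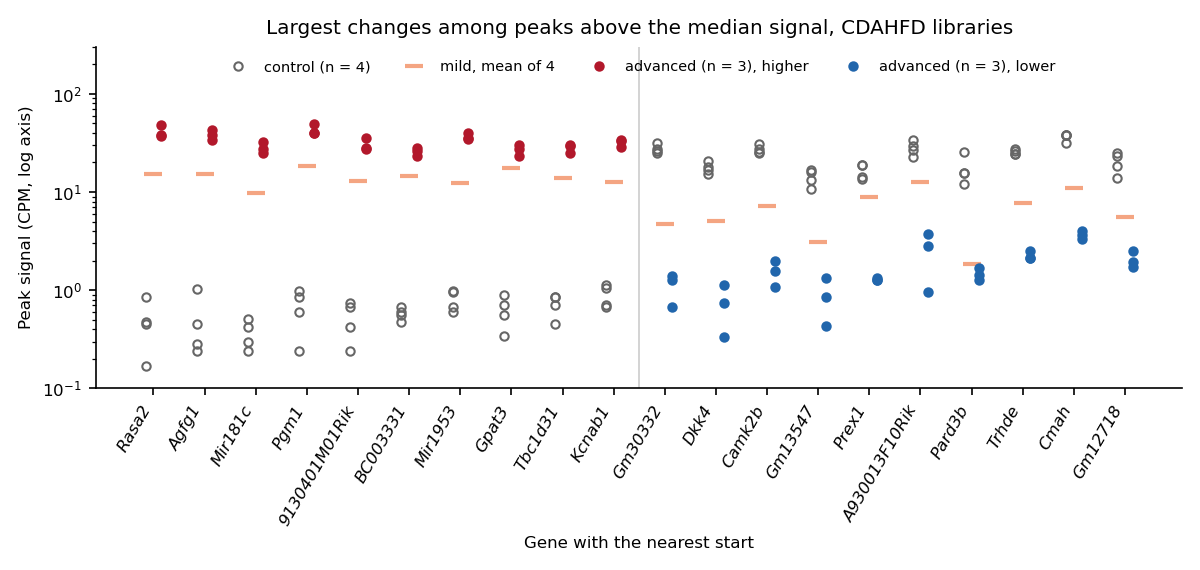
Signal (CPM, log axis) of the 10 largest gains (left) and 10 largest losses (right) among peaks above the median signal, named by the nearest start. Open circles are the 4 control libraries, bars the mild mean and filled circles the 3 advanced libraries, and no peak overlaps between groups because that was a condition for being shown. The mild mean lies between the groups at each peak drawn.

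Promoters show where the sequence itself can be printed beside its signal. The windows below run from 250 bases before to 50 bases after the start, 5′ to 3′ along the gene, from RefSeq on GRCm38.p6, and belong to 6 of 16 peaks with large changes, 8 in each direction. These 16 had above-median signal, no overlap between groups and at least 100 bases in the RefSeq window of the gene they are assigned to. The 6 were picked because they hold matches to factors discussed with the gene groups. Capitals mark each exact match, on either strand, to any of 25 short motifs, and positions count from 1 at the window's 5′ end. A match is a string of letters and not a shown binding site. Anxa2 encodes annexin A2, a calcium-dependent membrane protein of plasmin formation and injury. S100a11 encodes a calcium-binding partner of annexins, Sult2b1 a cholesterol sulfotransferase and Ttc39aos1 an antisense RNA beside Ttc39a, to whose start the peak is annotated. Insig2 encodes a sensor that holds back sterol synthesis, and Thrsp a regulator of fatty acid synthesis.
Anxa2, chr9:69453433-69453732, plus strand: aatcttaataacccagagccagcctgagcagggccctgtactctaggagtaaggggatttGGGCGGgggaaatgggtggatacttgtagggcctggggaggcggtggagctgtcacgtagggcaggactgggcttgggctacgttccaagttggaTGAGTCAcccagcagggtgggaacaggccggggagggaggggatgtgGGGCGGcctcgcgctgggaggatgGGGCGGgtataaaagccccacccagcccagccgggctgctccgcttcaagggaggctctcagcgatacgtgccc
S100a11, chr3:93520246-93520545, plus strand: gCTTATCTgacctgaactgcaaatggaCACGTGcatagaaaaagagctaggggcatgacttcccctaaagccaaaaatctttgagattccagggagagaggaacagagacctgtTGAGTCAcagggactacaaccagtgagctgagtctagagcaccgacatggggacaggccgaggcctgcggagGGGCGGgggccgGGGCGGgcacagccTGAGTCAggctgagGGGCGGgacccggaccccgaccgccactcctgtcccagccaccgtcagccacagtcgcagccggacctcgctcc
Sult2b1, chr7:45759563-45759862, minus strand: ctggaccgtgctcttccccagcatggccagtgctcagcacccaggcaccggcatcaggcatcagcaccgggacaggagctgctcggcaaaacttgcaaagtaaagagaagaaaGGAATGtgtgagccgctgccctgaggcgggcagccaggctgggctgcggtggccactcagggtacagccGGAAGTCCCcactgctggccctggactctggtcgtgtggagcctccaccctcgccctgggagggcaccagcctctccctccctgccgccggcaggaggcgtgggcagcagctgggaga
Ttc39aos1, chr4:109406208-109406507, minus strand: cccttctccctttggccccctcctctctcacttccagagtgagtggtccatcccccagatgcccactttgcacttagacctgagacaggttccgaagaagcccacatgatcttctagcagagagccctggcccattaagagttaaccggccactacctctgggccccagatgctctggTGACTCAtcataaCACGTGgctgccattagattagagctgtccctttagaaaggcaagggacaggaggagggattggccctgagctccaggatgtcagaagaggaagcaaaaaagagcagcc
Insig2, chr1:121332540-121332839, minus strand: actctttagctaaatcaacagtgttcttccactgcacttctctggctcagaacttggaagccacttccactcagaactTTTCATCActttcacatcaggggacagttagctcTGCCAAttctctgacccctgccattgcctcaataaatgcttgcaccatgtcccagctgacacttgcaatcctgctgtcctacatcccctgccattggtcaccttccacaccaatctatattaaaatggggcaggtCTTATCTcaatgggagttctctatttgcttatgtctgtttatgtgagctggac
Thrsp, chr7:97417501-97417800, minus strand: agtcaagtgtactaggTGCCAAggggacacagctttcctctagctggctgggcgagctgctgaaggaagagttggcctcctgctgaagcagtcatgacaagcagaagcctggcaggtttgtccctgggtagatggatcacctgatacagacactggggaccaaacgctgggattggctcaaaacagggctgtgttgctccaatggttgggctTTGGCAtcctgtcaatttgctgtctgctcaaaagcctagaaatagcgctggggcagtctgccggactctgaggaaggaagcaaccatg

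The Anxa2 window holds an AP-1 match at position 156 and SP and KLF matches at 61, 203 and 227. Its peak went from 1.41, 1.20, 0.950 and 1.70 CPM in controls to 35.9, 44.7 and 34.7 CPM in advanced livers, a log2 change of 4.88 ± 0.17. The lack of overlap was a condition of the choice, and the mild libraries at 23.7 to 28.2 CPM lay between the groups. S100a11 holds 2 AP-1 matches, at positions 115 and 213, and its peak rose by 3.0 ± 0.19, from 2.14 to 2.99 CPM to 18.5 to 23.4 CPM. In Ttc39aos1 an AP-1 match at 179 lies near an E-box at 192, and the peak rose by 3.77 ± 0.19. Sult2b1 holds a TEAD match at 114 and an NF-kB match at 183, with a rise of 2.99 ± 0.23 from 1.66 to 2.82 CPM to 15.4 to 20.0 CPM. The Insig2 window holds an NF1 site (the single recognition unit) at 113 and a composite of ATF4 and C/EBP at 79, and its peak fell by 2.18 ± 0.29. Thrsp holds such NF1 sites at 17 and 213. Its peak went from 41.8, 41.3, 38.7 and 61.5 CPM to 11.3, 15 and 12.8 CPM, a fall of 1.82 ± 0.19. Here too the lack of overlap was set by the choice. Among the 16, the other promoters that rose belong to Osbpl3 (4.48 ± 0.23), an oxysterol-binding protein, Adamts1 (3.77 ± 0.16), a secreted protease that cleaves proteoglycans, Znrf1 (3.35 ± 0.22), a ubiquitin ligase, and Ier5l (3.34 ± 0.22). Those that fell included the promoters of Adgrf1 (-2.73 ± 0.35), an adhesion GPCR, Lifr (-2.37 ± 0.32), the receptor of leukaemia inhibitory factor, and Slc29a1 (-1.91 ± 0.29), a nucleoside transporter. The windows of Lifr and Znrf1 contained none of the 25 strings.

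Across the 10021 peaks that overlapped a RefSeq promoter window by at least 100 bases, 4.85% of windows held the AP-1 string TGANTCA. The share was 6.71% in 3533 higher peaks and 13.4% in the 580 that were higher by more than 2-fold, against 3.90% in 1153 lower peaks. Of all 32817 windows of this length 7.81% held it. For HNF4A, searched as CAAAGTNCA, the shares were 0.821% in higher and 3.73% in lower peaks, against 1.49% in all 10021. The C/EBP string TTGCNNAA was found in 8.12% of higher and 12.5% of lower windows, and in 20% of the 105 windows lower by more than 2-fold. C/EBP strings were in 8.81% of the 10021 and 10.8% of all 32817 windows. Glucocorticoid receptor strings (ACANNNTGT) were in 3.11% of higher and 6.59% of lower windows, against 3.82% of the 10021 and 6.85% of all 32817. NF1 sites (TTGGCA) were in 11.1% of higher and 16.9% of lower windows, against 11.8% and 14.1%. In windows lower by more than 2-fold the shares of these last strings were 10.5% and 27.6%. The TEAD string GGAATG was found in 11.9% of higher and 12.1% of lower windows, against 11.5% of the 10021 and 14.7% of all 32817. Base composition moved with these shares: the median GC content was 62.3% in higher and 58.3% in lower windows, and 52.3% in those lower by more than 2-fold, and its part in them was not tested. The SP and KLF string GGGCGG was in 71.1% of higher and 56.2% of lower windows, against 68.3% of the 10021 and 35.6% of all 32817. Among windows changed by more than 2-fold it was in 64.5% of higher and 28.6% of lower ones. Both strands were searched, and strings of different factors can overlap.

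Genes of the biliary and progenitor lineage gained accessibility as a group. Of 24 measured structural genes of this lineage 17 rose, 1 fell and 6 were not called, with a median log2 change of 0.64 (all genes -0.01, with 28.5% higher). Ddr1, a receptor kinase for collagen, held 16.4, 23.1, 20.6 and 17.9 CPM over its 9 peaks in controls and 156, 174 and 168 CPM in advanced livers. This was a rise of 3.08 ± 0.14 (adjusted p = 1.9e-14, edgeR), with no overlap and a mild mean of 91.1 ± 17.6 CPM. Cldn6, a tight junction claudin of embryonic epithelia, went from 1.02, 0.707, 1.14 and 1.20 CPM to 28.3, 32.9 and 24.4 CPM at its single peak, a rise of 4.78 ± 0.23. Bicc1, which binds RNA in epithelial tubules, rose by 2.92 ± 0.25 and Tspan8, a tetraspanin of epithelial surfaces, by 0.96 ± 0.09. The bile duct keratins sat at few counts in controls: Krt19 held 0.677, 0.353, 0.284 and 0.802 CPM in control and 4.43, 6.31 and 7.33 CPM in advanced libraries (3.48 ± 0.43). Krt7 went from 0.201 to 0.508 CPM to 3.34 to 4.56 CPM, and Epcam, an epithelial adhesion molecule, from 2.12 to 5.21 CPM to 11.7 to 17.1 CPM. Both groups were apart in each of these genes. Of the 18 measured cholangiocyte markers, several of which are in this list too, 12 rose and 2 fell (median 0.69). Not every duct gene moved this way. Tff2, a trefoil peptide, fell by 1.51 ± 0.18, and Onecut2, a factor of the bile duct and hepatoblast, had 312 to 332 CPM in control and 318 to 329 CPM in advanced libraries.

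Of 20 transcription factors of the biliary and progenitor lineage 11 rose and 1 fell, with a median of 0.30. Glis3, a factor of duct and islet development, went from 0.847, 0.530, 0.284 and 0.602 CPM to 5.90, 6.50 and 8.80 CPM (3.62 ± 0.42). Sox9, which marks ducts and reprogrammed hepatocytes, held 34, 21, 24.6 and 24.9 CPM in control and 46.7, 57.4 and 55.2 CPM in advanced libraries, a rise of 1.01 ± 0.15. Sox4, a progenitor factor, rose by 0.83 ± 0.08, Foxj1, a factor of ciliated cells, by 1.21 ± 0.14, and Klf6, an injury-induced zinc finger factor, by 0.70 ± 0.05.

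The Hippo pathway restrains YAP and TAZ, which bind DNA through TEAD factors, and its loss is known to push hepatocytes towards a duct-like state. Among 17 measured targets of YAP and TEAD, 9 rose and 4 fell (median 0.34). Myof, a membrane repair protein, held 3.89, 4.06, 3.83 and 6.62 CPM in control and 32.5, 38.6 and 37.6 CPM in advanced libraries, a rise of 2.99 ± 0.19. Ctgf, a secreted matricellular protein, rose by 1.36 ± 0.11 from 14.8 to 18.3 CPM to 40.8 to 50.0 CPM. Ajuba, a LIM protein that binds LATS kinases, rose by 1.37 ± 0.12 and Crim1, a transmembrane antagonist of BMPs, by 0.93 ± 0.09. Of 18 core genes of the pathway 6 rose and 3 fell, a median of 0.02. Ptpn14, a phosphatase that holds YAP in the cytoplasm, went from 2.54, 1.41, 2.84 and 1.60 CPM to 17.5, 25.2 and 26.6 CPM (3.39 ± 0.32). The kinase Lats2 rose by 0.69 ± 0.08 (0.14 and not called over promoter peaks) and Wwtr1, which encodes TAZ, by 0.59 ± 0.09, whereas the upstream kinase Stk3 fell by 0.50 ± 0.08.

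Notch signalling between neighbouring cells drives duct formation in the developing liver. Of 19 measured genes of the pathway 10 rose and 2 fell, with a median of 0.23. Nrarp, a target and brake of Notch, held 34.2, 28.4, 25.7 and 19.1 CPM in control and 73.6, 77 and 77.1 CPM in advanced libraries (1.49 ± 0.12). Heyl, a repressor induced by Notch, went from 1.14 to 2.88 CPM to 7.01 to 8.80 CPM, a rise of 2.11 ± 0.28. Hes1, the classical target, rose by 0.35 ± 0.06, though not over its promoter peaks alone (0.18, adjusted p = 0.0863, edgeR). Of 23 cadherin and junction genes 11 rose and 3 fell. Cldn7 rose by 3.63 ± 0.41, Cldn4 by 1.11 ± 0.13 and Cdh1, the E-cadherin gene, by 0.88 ± 0.09.

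**Figure D3:**
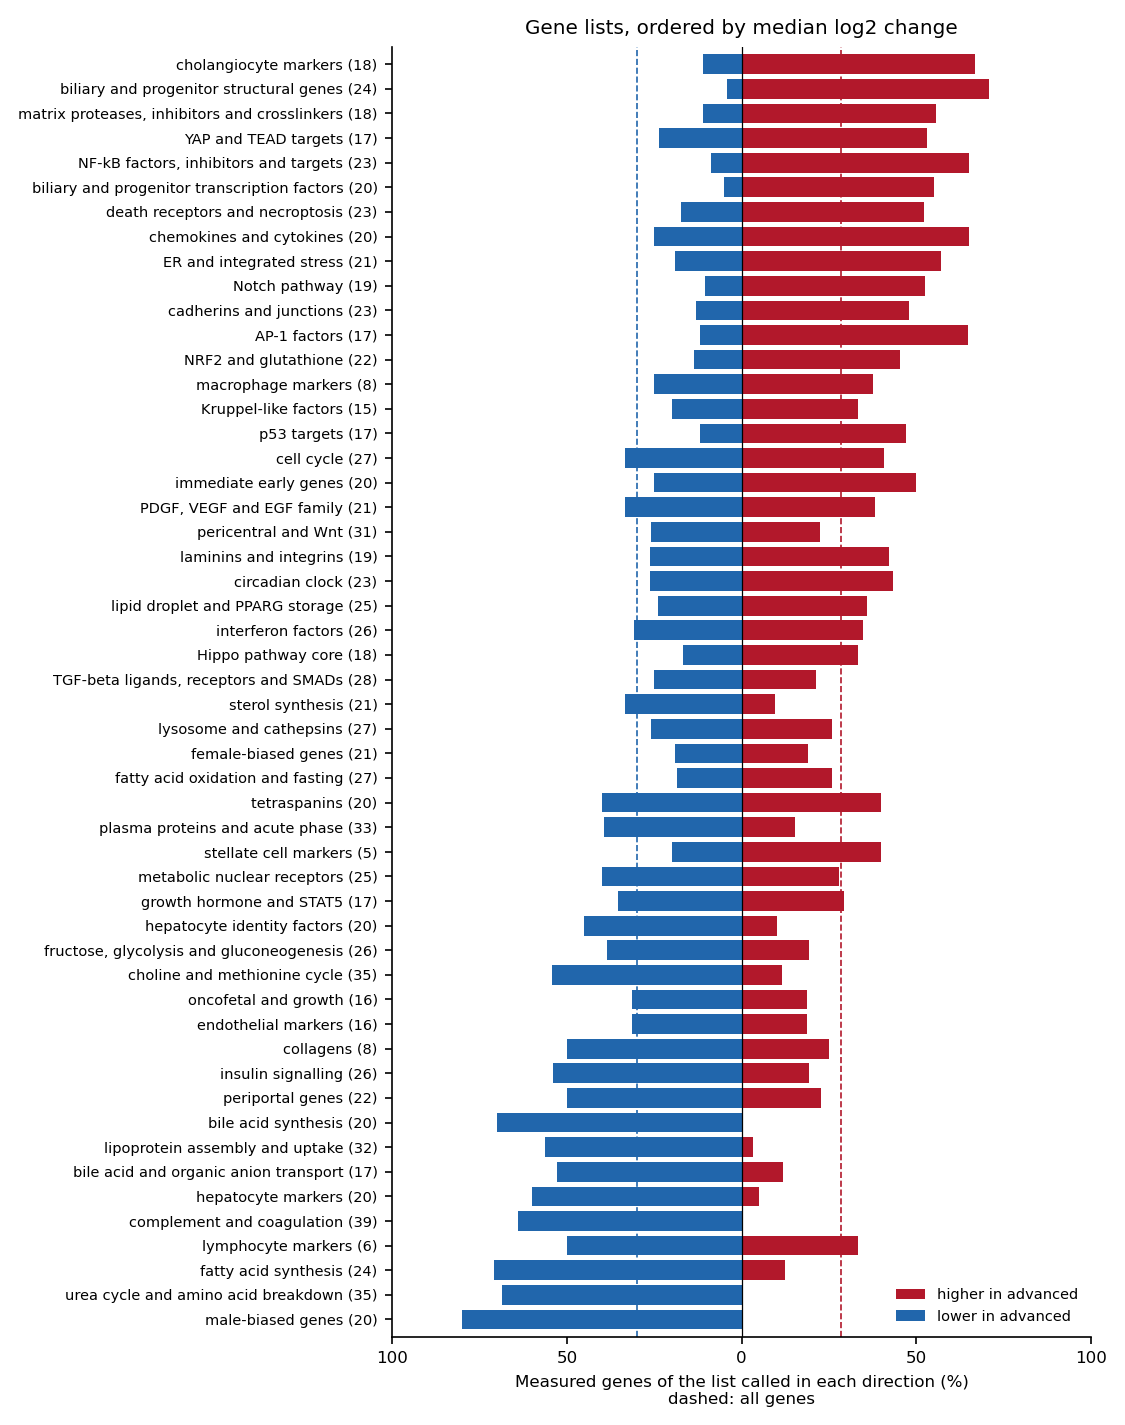
Measured genes of each list (number in brackets) called higher (red, to the right) or lower (blue, to the left) in advanced against control CDAHFD livers, as a percentage (x axis), ordered by the median log2 change of the list. Dashed lines mark all genes, at 28.5% higher and 30% lower. Biliary, protease, YAP and NF-kB lists lie at the top, and male-biased genes, urea cycle and fatty acid synthesis at the bottom.

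Fibrosis is built from collagens, laminins and their proteases, and its genes are mostly those of stellate cells. Of 21 collagen genes 8 had a peak in these nuclei, 2 rose and 4 fell. Col1a1, the main collagen of scar, held 15.7, 15.4, 10.8 and 13 CPM in control and 21.6, 24.1 and 23.9 CPM in advanced libraries over its 2 peaks, a rise of 0.76 ± 0.15. It is 1 of the 5 measured stellate cell markers, of which 2 rose and 1 fell, and the summed signal of that list is given above. Col15a1, a basement membrane collagen, fell by 0.62 ± 0.06, Col27a1 fell by 0.50 ± 0.09 and Col5a3 by 0.32 ± 0.06. Of 19 laminins and integrins 8 rose and 5 fell. Lama5, the laminin chain of duct basement membranes, held 12.4, 12.7, 16.8 and 15 CPM in control and 56.2, 57.4 and 57.7 CPM in advanced libraries (2.0 ± 0.11). Itgb8, an integrin that activates latent TGF-beta, went from 0.677, 0.530, 0.284 and 0.401 CPM to 7.62, 11.5 and 11.4 CPM, a rise of 4.36 ± 0.42. Lamc1 rose by 0.92 ± 0.08 and the laminin receptor Itga6 by 0.98 ± 0.12.

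Matrix proteases, their inhibitors and crosslinkers leaned to gain: 10 of 18 rose and 2 fell, with a median of 0.36. Plaur, the urokinase receptor, held 2.03, 2.30, 1.42 and 1.81 CPM in control and 26.3, 24.9 and 24.3 CPM in advanced libraries, a rise of 3.74 ± 0.24. Mmp7, the matrilysin of duct epithelium, went from 0.883 to 2.41 CPM to 12.2 to 21.5 CPM (3.36 ± 0.30). Timp2, a metalloproteinase inhibitor, rose by 3.05 ± 0.26 and Plat, the tissue plasminogen activator, by 2.48 ± 0.22. No library of either group reached the range of the other in these 4 genes, which were named for a small p.

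TGF-beta, the main profibrotic cytokine, acts through paired receptors and SMAD proteins. Of 28 measured ligands, receptors and SMADs 6 rose and 7 fell, a median of 0.00. Tgfb1 went from 7.96, 7.77, 6.96 and 6.82 CPM to 17.6, 17.4 and 16.6 CPM (1.22 ± 0.15). Tgfbr3, the co-receptor betaglycan, held 114, 114, 119.8 and 135 CPM in control and 29.5, 30.3 and 35.7 CPM in advanced libraries and fell by 1.93 ± 0.09 (adjusted p = 1.1e-14, edgeR). Inhba, an activin subunit, fell by 0.56 ± 0.07 and Acvr1, an activin and BMP receptor, by 0.40 ± 0.05. Of 21 PDGF, VEGF and EGF family genes 8 rose and 7 fell. Pdgfb, the chain that makes stellate cells divide, went from 0.677, 0.353, 0.568 and 1.20 CPM to 6.88, 9.65 and 8.47 CPM at its single peak (3.56 ± 0.41). Hbegf, a ligand of the EGF receptor, rose by 0.85 ± 0.09, and Vegfc, the lymphatic growth factor, fell by 0.63 ± 0.08.

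Inflammatory regulators leaned to gain. NF-kB is held inactive by IkB proteins and switches on cytokines, adhesion molecules and its own inhibitors. Of 23 measured NF-kB factors, inhibitors and targets 15 rose and 2 fell (median 0.33). Tnip1, an inhibitor of the pathway, held 80.6, 85.5, 75.4 and 74.8 CPM in control and 179, 179 and 170.2 CPM in advanced libraries (1.15 ± 0.06). Map3k14, the kinase of the noncanonical arm, rose by 0.69 ± 0.06, the adhesion molecule Icam1 by 0.86 ± 0.10 and the inhibitor Nfkbie by 0.89 ± 0.11. Of 20 chemokines and cytokines 13 rose and 5 fell (median 0.28). Tnf held 0.677, 0.707, 0.284 and 0 CPM in control and 6.15, 5.57 and 6.35 CPM in advanced libraries, a rise of 3.76 ± 0.39 from almost no counts. Cx3cl1, the membrane-bound chemokine fractalkine, went from 8.02 to 9.71 CPM to 23.9 to 29.5 CPM (1.63 ± 0.18). Ccl5, a chemokine for T cells, rose by 1.20 ± 0.12 and Lif, a cytokine of the IL-6 family, by 0.93 ± 0.09, but not over its promoter peaks (-0.04).

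Of 23 death receptor and necroptosis genes 12 rose and 4 fell (median 0.28), with none of the falls called without advanced library 1 or without control library 3. Tnfrsf10b, the receptor of TRAIL, went from 4.57, 4.24, 3.83 and 4.81 CPM to 18.7, 22.8 and 18.6 CPM (2.20 ± 0.16). Tnfrsf12a, the receptor of TWEAK that drives duct expansion, rose by 1.11 ± 0.10 and Bcl2l1, which protects from apoptosis, by 0.50 ± 0.06, a call lost over peaks within 10 kb (0.11) and promoter peaks (0.03). Among 17 AP-1 factors 11 rose and 2 fell (median 0.20). The small MAF proteins stood out in size: Mafk held 60.5, 64.6, 70.7 and 52.5 CPM in control and 136, 155 and 149 CPM in advanced libraries (1.23 ± 0.08), and Maff rose by 1.27 ± 0.09. Fosb rose by 0.52 ± 0.07 and Junb by 0.40 ± 0.07. Of 20 immediate early genes 10 rose and 5 fell, or 7 and 3 without advanced library 1, with Ier3, a stress-induced survival gene, up by 1.70 ± 0.15 and Nr4a2, an orphan nuclear receptor, down, with a log2 change of -0.96 ± 0.12. Interferon factors were split, with 9 of 26 higher and 8 lower: Socs1 and Stat4 rose by 0.83 ± 0.08 and 1.87 ± 0.20, and Ddx58, the RNA sensor RIG-I, fell by 0.53 ± 0.06. With the promoter peaks alone Ddx58 was called higher instead (log2 change 0.33). Of 15 Kruppel-like factors 5 rose and 3 fell.

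Stress pathways leaned to gain as well. The unfolded protein response senses misfolded proteins in the endoplasmic reticulum and the integrated stress response slows translation. Of 21 measured genes 12 rose and 4 fell (median 0.26). Hspa5, the chaperone BiP, held 95.7, 93.4, 108 and 119.9 CPM in control and 169, 169 and 169 CPM in advanced libraries (0.70 ± 0.06), without overlap. Eif2ak3, the sensor kinase PERK, went from 157, 138, 133 and 139.6 CPM to 296, 278 and 249 CPM (0.95 ± 0.06). Canx, a lectin chaperone, rose by 0.66 ± 0.06 and Ddit3, the death-promoting factor CHOP, by 0.51 ± 0.07. Of 22 NRF2 and glutathione genes 10 rose and 3 fell: the quinone reductase Nqo1 rose by 1.07 ± 0.10, Srxn1 by 0.89 ± 0.09, Gsta1 by 0.65 ± 0.10 and the drug exporter Abcc1 by 1.84 ± 0.27. Of 17 p53 targets 8 rose and 2 fell. Cdkn1a, the cell cycle inhibitor p21, held 20.2, 27.2, 29.1 and 19.3 CPM in control and 73.9, 84.1 and 62.6 CPM in advanced libraries, a rise of 1.60 ± 0.12. Mdm2, which degrades p53, rose by 0.51 ± 0.07 and Phlda3, an inhibitor of AKT, by 0.55 ± 0.08. Of 27 cell cycle genes 11 rose and 9 fell, among them Ccnd2 and Cdc20 with rises of 2.42 ± 0.27 and 1.72 ± 0.15, and Rb1, which fell by 0.58 ± 0.07 (0.02 over peaks within 10 kb).

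Genes of choline and one-carbon metabolism, the pathway the diet starves, mostly lost accessibility, by small amounts. Of 35 measured genes 19 fell, 4 rose and 12 were not called, with a median of -0.16. The loss was not particular to this diet. In advanced FPC livers 20 of the 35 fell and 5 rose (median -0.31), and none passed the test of the difference between diets. The mitochondrial breakdown of choline to glycine runs through betaine, dimethylglycine and sarcosine. Dmgdh, the dimethylglycine dehydrogenase, held 25.6, 25.8, 28.5 and 35.5 CPM in control and 9.34, 8.35 and 12.4 CPM in advanced libraries and fell by 1.52 ± 0.18, with no overlap. Sardh, the next enzyme, fell by 0.27 ± 0.07, and its libraries overlapped in range. Betaine gives its methyl group to homocysteine through Bhmt, which fell by 0.47 ± 0.15, and Bhmt2, which went from 98, 92.6, 95.7 and 98.3 CPM to 65.8, 61.1 and 60.9 CPM (-0.62 ± 0.08). Chdh, which starts choline oxidation, held 186 to 223 CPM in control and 174 to 194 CPM in advanced libraries and was not called, while Aldh7a1, which can make betaine, fell by 0.36 ± 0.09.

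Pemt, the methyltransferase that makes phosphatidylcholine without dietary choline, held 166, 147, 179 and 177 CPM in control and 116, 119.9 and 124 CPM in advanced libraries and fell by 0.48 ± 0.08. Chpt1, the last enzyme of the route from choline, fell by 0.48 ± 0.08. The kinases Chka and Chkb and the rate-setting Pcyt1a of that route were not called: their log2 changes were 0.10 ± 0.07, -0.01 ± 0.12 and -0.02 ± 0.06. Pcyt2, of the ethanolamine branch, rose by 0.26 ± 0.07, and Etnk2, an ethanolamine kinase, fell by 0.28 ± 0.09. Of the choline transporter-like genes, Slc44a4 went from 6.43, 12, 7.95 and 4.01 CPM to 16, 16.3 and 16 CPM (1.06 ± 0.20), Slc44a3 rose by 0.34 ± 0.08 and Slc44a2 by 0.26 ± 0.11, whereas Slc44a1, the widely expressed one, fell by 0.24 ± 0.05. In the methionine cycle Mat1a, which makes S-adenosylmethionine in hepatocytes, fell by 0.29 ± 0.11, Gnmt, which consumes it, by 0.51 ± 0.10, and Ahcy, which hydrolyses the product, by 0.41 ± 0.08. Nnmt, which methylates nicotinamide, fell by 0.61 ± 0.15. The sulfur branch followed with Cbs (-0.40 ± 0.12) and Cth (-0.35 ± 0.09), and the serine hydroxymethyltransferases Shmt1 and Shmt2 fell by 0.38 ± 0.07 and 0.53 ± 0.08, Shmt1 not over its promoter peaks (0.0054). The folate genes Mtr and Mtrr were not called. Some of these small changes hung on single libraries or on the scaling and tool. Mat1a and Etnk2 were not called under cyclic loess scaling (adjusted p = 0.0687 and 0.0817, edgeR) or limma (0.104 and 0.0972), nor Mat1a with the scaling of the peaks (0.0552, edgeR). Slc44a2 was not called in DESeq2 (0.0786), under cyclic loess scaling (0.0559, edgeR) or in a fit of only the 7 libraries (0.0933, edgeR). Over promoter peaks alone the calls of Aldh7a1, Pcyt2, Mat1a, Etnk2, Slc44a2 and Nnmt were lost, and over peaks within 10 kb those of Nnmt and Slc44a1. Without advanced library 1 the adjusted p was 0.0581 for Bhmt, 0.111 for Etnk2, 0.0719 for Mat1a and 0.113 for Slc44a2 (edgeR). Bhmt was also lost without advanced library 2 or control library 3, Mat1a without advanced library 2 or control library 3 or 4, and Slc44a2 without advanced library 3 or control library 1, 2 or 3. Chdh was called without advanced library 3 (-0.17) or control library 2 (-0.17), and more clearly over its promoter peaks alone (-0.88, adjusted p = 0.002, edgeR). Chka was called higher without control library 3 (0.19), under cyclic loess scaling (0.18) and limma (0.20), and by 0.50 over peaks within 10 kb and 0.48 over promoter peaks. Pcyt1a was called over its promoter peaks (-0.18).

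Genes of lipid export and fatty acid synthesis mostly fell where they were called. Of 32 genes of lipoprotein assembly and uptake 18 fell and 1 rose (median -0.25). Mttp, which loads triglyceride onto apolipoprotein B, went from 98.7, 102, 103 and 111 CPM to 65.2, 55.3 and 66.1 CPM (-0.73 ± 0.10). Apob fell by 0.33 ± 0.06 (but stood at 0.09 over peaks within 10 kb), the cholesterol exporter Abca1 by 0.39 ± 0.05 (-0.13 and not called over promoter peaks), and the sterol exporter pair Abcg5 and Abcg8 by 0.46 ± 0.07 and 0.59 ± 0.08. Of 24 fatty acid synthesis genes 17 fell and 3 rose (median -0.30). Thrsp held 181, 150.5, 163 and 217 CPM over its 6 peaks in controls and 45.4, 63.3 and 60.6 CPM in advanced livers and fell by 1.67 ± 0.18. Elovl3, an elongase, fell by 1.53 ± 0.11. The desaturases moved apart: Scd1 fell by 0.82 ± 0.14, from 234, 188, 286 and 316 CPM to 134, 169 and 133 CPM, and Scd2 went from 3.39, 3.18, 6.39 and 7.42 CPM to 26.7, 31.7 and 33.7 CPM (2.58 ± 0.22). Of 21 sterol synthesis genes 7 fell and 2 rose, the latter Srebf2, which encodes the master regulator (0.50 ± 0.07), and Sqle, squalene epoxidase (0.38 ± 0.08, but -0.09 over its promoter peaks).

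Storage and burning of lipid were mixed. Of 25 lipid droplet and storage genes 9 rose and 6 fell, among them Pparg (0.41 ± 0.07, but not called within 10 kb at 0.26) and the triglyceride lipase Pnpla2 (0.61 ± 0.08) upwards and Mgll (-0.62 ± 0.07) and Mogat1 (-0.75 ± 0.12) downwards. Of 27 genes of fatty acid oxidation and fasting 7 rose and 5 fell, or 3 and 4 without advanced library 2. Fgf21, a fasting and stress hormone, rose by 0.75 ± 0.09, and Ppargc1a, a coactivator of mitochondrial genes, fell by 0.74 ± 0.09, not called over promoter peaks (-0.33). Of 26 genes of fructose, glycolysis and gluconeogenesis 5 rose and 10 fell. Gckr, the regulator of glucokinase, held 76.4, 68.5, 77.7 and 74.8 CPM in control and 41.7, 36.2 and 31.9 CPM in advanced libraries and fell by 1.01 ± 0.11, while Hk1, the hexokinase of most other cells, went from 2.01 to 3.39 CPM to 9.10 to 12.1 CPM (1.88 ± 0.23). Pck2, the mitochondrial form of the gluconeogenic enzyme, rose by 2.08 ± 0.16 and the glucose transporter Slc2a1 by 0.57 ± 0.06. Insulin signalling genes leaned to loss, with 14 of 26 lower and 5 higher.

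Functions of the mature hepatocyte lost accessibility as groups. None of 35 measured urea cycle and amino acid genes rose and 24 fell (median -0.35). Arg1, the arginase that releases urea, held 243, 229, 256 and 289 CPM in control and 131, 128 and 170.2 CPM in advanced libraries and fell by 0.83 ± 0.12. Haao, of tryptophan breakdown, fell by 0.81 ± 0.08, Agxt, which detoxifies glyoxylate, by 0.78 ± 0.10 and Hal, which breaks down histidine, by 0.73 ± 0.09. Bile acid synthesis had 14 of 20 genes lower (9 to 13 under other scalings and tools) and none higher, with Akr1d1, the steroid reductase of the pathway, down at -0.80 ± 0.09. Of 17 transporters of bile acids and organic anions 9 fell and 2 rose. Slc10a1, the sodium-dependent bile acid uptake transporter, went from 111, 115, 119 and 108 CPM to 56.4, 42.9 and 52.5 CPM (-1.15 ± 0.10), and Slc22a7, an organic anion carrier, fell by 1.13 ± 0.09.

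Complement and coagulation, which hepatocytes secrete into plasma, had 25 of 39 genes lower and none higher (median -0.28). C8b, of the membrane attack complex, held 93.5, 93.3, 97.1 and 112 CPM in control and 48.2, 41.9 and 48.1 CPM in advanced libraries and fell by 1.10 ± 0.09. Plg, plasminogen, fell by 0.78 ± 0.09 and F7 by 0.71 ± 0.08. Among 33 plasma and acute phase proteins 13 fell and 5 rose. Lcn2 and Serpina3n, acute phase proteins, rose by 0.95 ± 0.15 and 0.68 ± 0.08 (Serpina3n stood at -0.37 over its promoter peaks, not called), Ttr, transthyretin, fell by 0.50 ± 0.06, and Alb, albumin, was not called (383 to 404.5 CPM in control and 333 to 405.3 CPM in advanced libraries). The factors that set hepatocyte identity moved little: of 20, 9 fell and 2 rose (median -0.14), or 7 and 5 without control library 3. Hnf4a stood at -0.18 ± 0.06, a call lost without control library 3 (adjusted p = 0.0627, edgeR), under cyclic loess scaling (0.0533, edgeR), with the scaling of the peaks (0.0887, edgeR) and in limma (0.218). Nfib stood at -0.43 ± 0.06 (-0.04 and not called over promoter peaks) and Gata4 at -0.69 ± 0.09. Of 25 metabolic nuclear receptors 10 fell and 7 rose. Rarg, a retinoic acid receptor, went from 29.3, 28.6, 24.7 and 21.3 CPM to 106, 138 and 127 CPM (2.24 ± 0.13).

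**Figure D4:**
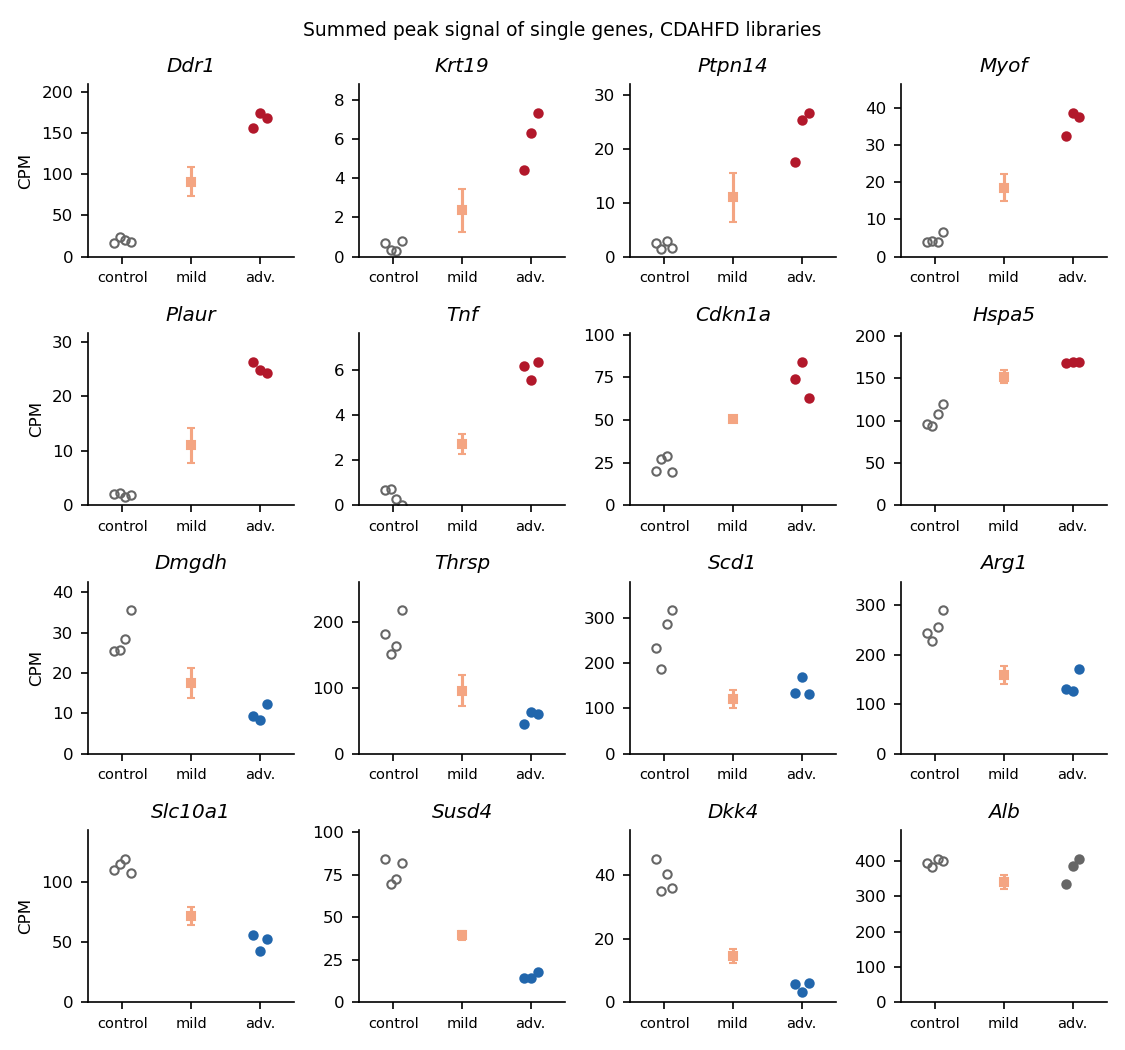
Summed peak signal (CPM, y axis from 0) of 16 genes. Open circles are the 4 control libraries, squares with bars the mild mean ± SD (n = 4), and filled circles the 3 advanced libraries, red where the gene was called higher, blue where called lower and grey where not called. Alb overlaps between the groups, and the other genes do not, many of which were named for a small p.

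Genes with a known male bias lost accessibility as a group in these male mice, and genes with a female bias did not shift as a group. Of 20 male-biased genes 16 fell and none rose, with a median of -0.90, the lowest of the lists. Susd4, a complement regulator, held 84.2, 69.2, 72.3 and 81.6 CPM in control and 14.5, 14.1 and 18.1 CPM in advanced libraries and fell by 2.30 ± 0.13 (adjusted p = 9.8e-13, edgeR). Cyp2d9, a male-specific steroid hydroxylase, went from 169, 134, 191 and 157 CPM to 47.9, 43.2 and 57.7 CPM (-1.72 ± 0.14). The groups were far apart in both. Female-biased genes were not a mirror image, with 4 of 21 higher and 4 lower (median -0.03). Fewer of them were called (38.1%) than of all genes (58.5%). Hao2, a hydroxyacid oxidase, rose by 1.03 ± 0.13, Cyp2a4 by 1.91 ± 0.26 and Cyp3a44 by 1.38 ± 0.19, and Sult2a1 fell by 1.56 ± 0.29. Several of these are members of tandem families with near-identical copies, whose reads and nearest-start assignments can be shared, so single members are uncertain. Of 17 growth hormone and STAT5 genes, the axis that sets the sex bias, 5 rose and 6 fell, with Ghr, the receptor, at -0.49 ± 0.06, and Bcl6, a repressor in males, at -0.56 ± 0.12 (-0.21 and not called over promoter peaks).

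Liver lobules are zoned, with Wnt-driven genes around the central vein and amino acid and gluconeogenic genes around the portal tract. Of 31 pericentral and Wnt genes 7 rose and 8 fell, and of 22 periportal genes 5 rose and 11 fell. Dkk4, the nearest start of the Polb intron peak described above, held 44.9, 35, 40.2 and 35.7 CPM over its 2 peaks in controls and 5.66, 3.34 and 6.19 CPM in advanced livers and fell by 2.91 ± 0.20. Glul, glutamine synthetase of the innermost pericentral cells, fell by 0.86 ± 0.10 and Cyp1a2 by 0.60 ± 0.08, while Ctnnb1, beta-catenin, rose by 0.56 ± 0.10. Of 23 circadian genes 10 rose and 6 fell: Csnk1e, a clock kinase, rose by 1.11 ± 0.08 (0.17 and not called over promoter peaks), Arntl, which encodes BMAL1, by 0.56 ± 0.06, Nr1d1 by 0.49 ± 0.07 and Per3 by 0.57 ± 0.08. The sources used here do not say at what time of day livers were taken.

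Large families differed from one another when set against all genes, of which 28.5% were higher, 30% lower and 58.5% called. Of 75 cytochrome P450 genes 37 fell and 11 rose (median -0.28), and of 32 UDP-glucuronosyl- and sulfotransferases 20 fell and 2 rose (median -0.45). Of 292 solute carriers 108 fell and 71 rose, including Slc22a12, the kidney urate transporter (2.58 ± 0.19), and Slc16a5, a monocarboxylate carrier (2.10 ± 0.17). Cytosolic ribosomal protein genes leaned to small gains, with 31 of 77 higher and 9 lower (median 0.15). Respiratory chain genes had 16 of 86 higher and 26 lower (48.8% called), and mitochondrial ribosomal genes 21 of 70 higher and 13 lower (48.6% called). Proteasome subunits were split, 9 of 36 higher and 8 lower (47.2% called). Of 289 zinc finger genes 74 rose and 65 fell (48.1% called), or 74 to 96 and 34 to 65 under other scalings and tools. Respiratory chain, mitochondrial ribosomal, proteasome and zinc finger genes were thus called less often than genes at large. The P450 genes (64% called), the transferases (68.8%) and the solute carriers (61.3%) were called more often. Of 27 lysosomal genes 7 rose and 7 fell, and of 20 tetraspanins 8 and 8. Cd63, a tetraspanin of late endosomes, held 14.7, 15, 15.2 and 14.2 CPM in control and 49.1, 55.1 and 51.3 CPM in advanced libraries (1.80 ± 0.11), and Tspan15, a partner of the protease ADAM10, rose by 1.76 ± 0.16. Among 16 oncofetal and growth genes 3 rose and 5 fell: Igf2 fell by 1.73 ± 0.26 and Zhx2, which represses fetal genes in the adult liver, by 0.57 ± 0.06. With the promoter peaks alone Zhx2 was called higher (log2 change 0.30).

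Beyond the lists, genes were named by fold among those with above-median signal and no overlap, so genes of lower signal with larger folds are left out. Of the gains, A730004F24Rik, a long noncoding RNA gene, went from 9.99, 8.48, 4.26 and 14.2 CPM to 124, 143 and 132 CPM (3.90 ± 0.17). Usp43, a deubiquitinase, rose by 2.62 ± 0.10, B4galt6, a galactosyltransferase of glycolipids, by 2.55 ± 0.15, and Ttc39a by 2.10 ± 0.09. Lgals3, galectin 3, a lectin tied to fibrosis, held 22.9, 22.6, 15.5 and 17 CPM in control and 91.6, 108 and 90.3 CPM in advanced libraries, a rise of 2.31 ± 0.10. Among the losses, Trhde, a peptidase that inactivates thyrotropin-releasing hormone, went from 71.1, 71.4, 67.4 and 76.6 CPM to 6.02, 6.31 and 5.87 CPM, a fall of 3.56 ± 0.19. Capn8, a calpain, fell by 3.03 ± 0.25, from 55.5 to 98.5 CPM to 8.35 to 11.7 CPM. These were chosen for their size and for libraries that do not overlap, so the absence of overlap is no further result.

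At some genes nearly every peak moved the same way. Of 3016 genes with at least 6 peaks, 117 had at least 80% of their peaks called higher and 129 at least 80% called lower, against 26.7% and 28.8% of all peaks. Myh9, nonmuscle myosin of stress fibres, had 19 of 23 peaks higher and 1 lower on chromosome 15, over 57.5 kb. Dab2ip, a Ras GTPase-activating scaffold, had 20 of 22 higher, with single peaks from 0.05 to 4.17 on the log2 scale. Lmna, the nuclear lamin A, had 11 of 12 higher and Osbpl3 11 of 12. The Osbpl3 peaks ranged from -0.06 to 6.89 around a median of 2.21. In the other direction all 22 peaks of Cmah were lower, between -3.68 and -0.51. Ppp1r3b, which directs glycogen synthesis, had 14 of 15 lower, Pon1, the paraoxonase of HDL, 12 of 13, and Met, the receptor of hepatocyte growth factor, 12 of 15 lower and 1 higher. At Scd1 13 of 16 peaks were lower. Summed over its peaks, Cmah held 430.1, 543, 435 and 468 CPM in control and 157, 145 and 186 CPM in advanced libraries, and Dab2ip 193, 157, 159 and 160.1 CPM and 408, 429 and 435 CPM. Neighbouring peaks share cells and sometimes reads, so they are not independent.

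**Figure D5:**
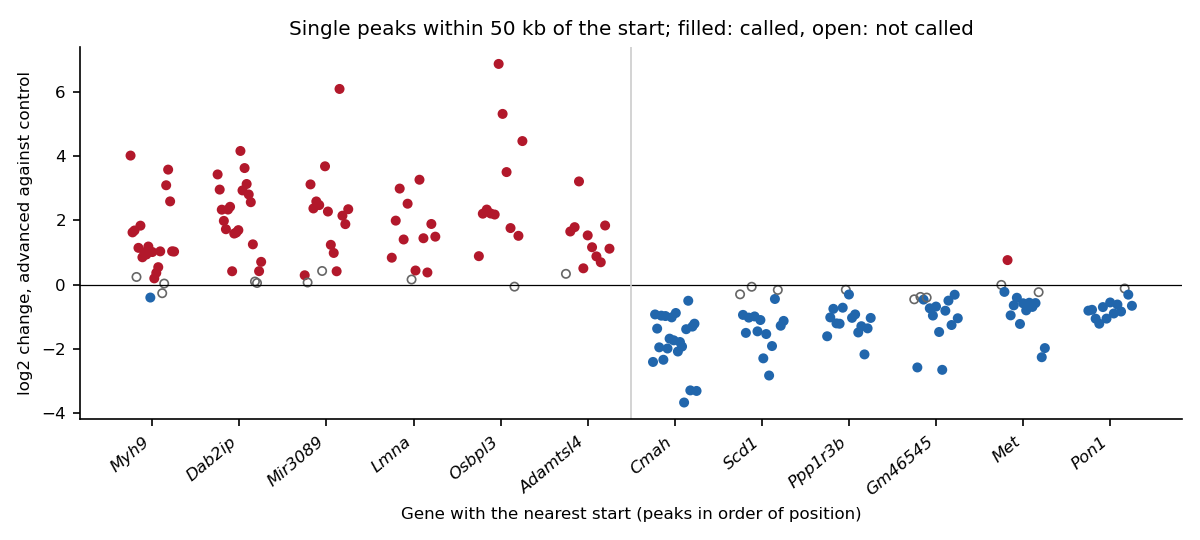
Log2 change (y axis) of each peak within 50 kb of the start at 12 genes chosen for having many peaks of which at least 80% were called in 1 direction, in order of position. Filled points were called (red higher, blue lower) and open points were not. All 22 Cmah peaks are filled blue, and the Osbpl3 peaks reach 6.89.

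Peaks were also assigned to microRNA genes, which shorten the life of messages that match their seed. Of 477 microRNA genes with a peak 144 rose and 175 fell (66.9% called, median -0.08). Summed peaks near a microRNA gene say nothing of the mature molecule, and many such genes lie inside or beside a coding gene. The mature sequences below, from RefSeq on GRCm38.p6, show which seeds these loci carry, with the seed (bases 2 to 8) in capitals. Their genes had large called changes, above-median signal, no overlap between groups and a mature sequence in RefSeq. Some genes and arms that met these limits are not reported here.
miR-23a-3p of Mir23a: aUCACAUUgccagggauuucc
miR-23a-5p of Mir23a: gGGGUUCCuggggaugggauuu
miR-3089-5p of Mir3089: uGAGUUCAgggacagcgugucu
miR-763 of Mir763: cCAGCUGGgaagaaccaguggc
miR-499-5p of Mir499: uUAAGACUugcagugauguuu
miR-682 of Mir682: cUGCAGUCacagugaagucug
miR-5104 of Mir5104: cUGUGCUAgugagguggcucagca
No seed is shared among these 7. Mir23a, on the same stretch of chromosome 8 as the Mir181c peak above, held 14.2, 9.89, 9.94 and 12.6 CPM in control and 102, 144 and 125 CPM in advanced libraries over 7 peaks, a rise of 3.40 ± 0.15. The groups lay apart, as the choice required, and the mild libraries stood at 47.4 to 62.7 CPM. Mir3089 rose by 1.42 ± 0.06, with 14 of its 16 peaks called higher, and Mir763 by 1.29 ± 0.18. Mir682 fell by 1.11 ± 0.11, Mir499, which lies inside a myosin gene, by 1.07 ± 0.10, and Mir5104 by 0.91 ± 0.07.

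Advanced livers of the FPC arm, with their own controls, moved largely in the same direction. Of the 4466 genes higher on the CDAHFD 3492 were also called higher on FPC, which is 78.2% of the CDAHFD genes and 72.5% of the 4817 FPC genes. Of the 4707 lower genes 3625 were shared, 77.0% and 75.9%. Only 41 of the higher and 44 of the lower CDAHFD genes were called in the opposite direction on FPC. The test of the difference between the changes on the diets, which last 7 and 20 weeks and so differ in time as well, called 753 genes (4.8%). In 41 of these the CDAHFD change was a called rise and the FPC change a called fall, in 42 the reverse, and in 236 both were called in 1 direction with different sizes. Of the 753, 441 had the higher and 312 the lower log2 change on the CDAHFD, and these counts were 311 and 179 without advanced library 1 and 266 and 187 without advanced library 3.

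The named genes that differed between diets came from several groups. Pnpla5, a lipase of the family of adipose triglyceride lipase, held 102, 105, 80.8 and 74 CPM in CDAHFD controls and 22.9, 30.8 and 25.1 CPM in advanced livers, a fall of 1.80 ± 0.24, and rose by 1.22 ± 0.22 on FPC. The difference was -3.02 ± 0.32 (adjusted p = 1.3e-05, edgeR). Sult4a1, a sulfotransferase known from brain, went from 47.1, 45.2, 39.8 and 34.7 CPM to 6.76, 9.47 and 8.15 CPM on the CDAHFD and rose by 1.39 ± 0.19 on FPC, a difference of -3.77 ± 0.29 (adjusted p = 2.4e-08, edgeR). These genes are neighbours on chromosome 15, 6866 bp apart in RefSeq on GRCm38.p6. Scd1 fell on the CDAHFD and rose by 0.32 ± 0.14 on FPC, a difference of -1.14 ± 0.20. Igf2bp2, an RNA-binding oncofetal protein, fell by 1.35 ± 0.18, from 21.7 to 37.4 CPM to 10.9 to 12.9 CPM, and rose by 0.64 ± 0.19 on FPC. Of the sterol synthesis list 2 of 21 genes rose and 7 fell on the CDAHFD, against 1 and 15 on FPC, and 5 of the 21 passed the test of the difference. Sqle rose by 0.38 ± 0.08 on the CDAHFD and fell on FPC, with a difference of 0.70 ± 0.11. Of the endoplasmic reticulum and integrated stress list 12 of 21 rose and 4 fell on the CDAHFD, against 5 and 7 on FPC, and 6 of the 21 passed the test of the difference, among them Eif2ak3 (0.57 ± 0.09) and Hspa5 (0.50 ± 0.09). Malat1, an abundant nuclear noncoding RNA, rose by 1.0 ± 0.11 on the CDAHFD and had a log2 change of 0.05 ± 0.11 on FPC. Mdm2 rose by 0.51 ± 0.07 against -0.10 ± 0.07, and Plaur and Lgals3 rose more on the CDAHFD by 1.40 ± 0.38 and 0.83 ± 0.16.

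Fibrotic livers were also set against livers of the same diet without marked fibrosis. The test of advanced against mild CDAHFD libraries (3 against 4) called 2725 of 15686 genes (17.4%), 1463 higher and 1262 lower. Without advanced library 2 it called 979 higher and 638 lower. Several biliary genes were among those higher in fibrotic livers: Bicc1 differed from mild by 1.54 ± 0.21, Krt19 by 1.32 ± 0.31, Epcam by 1.06 ± 0.23 and Ddr1 by 0.87 ± 0.12. Col1a1 held 12.4 to 13.3 CPM in mild livers, a level inside the control range, and 21.6 to 24.1 CPM in advanced livers, a difference of 0.85 ± 0.15 (adjusted p = 0.00034, edgeR). Itgb8 differed by 1.55 ± 0.28, Pdgfb by 1.67 ± 0.31, Tspan15 by 1.41 ± 0.15 and Rhoc, a GTPase of cell contraction, by 0.99 ± 0.10. Mir23a was higher by 1.25 ± 0.12, with 47.4 to 62.7 CPM in mild livers. In the other direction Trhde was lower than in mild livers, at -1.65 ± 0.22, as were Susd4 (-1.34 ± 0.14) and Dkk4 (-1.50 ± 0.22). Dkk4 held 12.7 to 17.8 CPM in mild and 3.34 to 6.19 CPM in advanced livers, without overlap. Scd1 did not pass: mild livers held 100.1 to 149 CPM and advanced livers 133 to 169 CPM. For Hspa5 the mild libraries held 143 to 161 CPM and the advanced libraries 169 CPM each, and the difference was not called.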

How the data were processed

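ATAC-seq was done on immunoprecipitated hepatocyte nuclei of each mouse, with paired-end reads, per the labels' protocols. The submitters' processing notes name BWA 0.7.5a-r405, SAMtools, HOMER, DESeq2 and mm10. The authors deposited one table of estimated counts per 200 bp peak, in steps of 0.5 (47.8% of values carry a remainder), which were rounded to whole numbers, and one of normalized signal, which is the deposited count cut to a whole number and divided by 1 factor per library. No column was left without a sample.

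Counts of 68827 peaks, and their sums over the 56777 peaks (82.5%) within 50 kb of the nearest start for 15686 genes, were fitted with edgeR 4.0.16 (R 4.3.3): TMM scaling, quasi-likelihood tests, 6 group means over all 22 libraries and Benjamini-Hochberg adjustment over all peaks or genes. 3149 pairs of neighbouring peaks overlap. CPM values are scaled by the TMM factors (prior count 2 for the log2 CPM of correlations), log2 changes are edgeR's with its default prior count, and SE is the change divided by the square root of F. The scripts were tested on simulated data. DESeq2 1.42.0, limma 3.58.1 on log2(signal + 1), other scalings, other gene sums with their own scaling and left-out CDAHFD libraries were the alternatives. Matches were sought in RefSeq promoter windows, chosen after seeing the data, because no genome sequence was used here.

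Members and lists were chosen with earlier results of these data known. Named were, in each list, up to 4 called genes with the smallest p (a few are not reported here), and all called genes of the choline list. The text also names the peaks and genes with the largest folds among those whose libraries do not overlap, and the genes with the most peaks moving 1 way. Genes of above-median signal with the largest called differences between diets, or from mild livers, were named too. Tff2, Onecut2, Krt7, the promoters, the microRNAs and the choline genes not called were chosen after their values were seen.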

Additional observations from a re-analysis of the deposited data

Results flagged for a closer look

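Of 237 named genes and peaks, 26 had a CDAHFD change that differed from the FPC change in edgeR's test of the difference (adjusted p under 0.05). Over all genes this test called 753 of 15686 (4.8%). Some of the 237 were named for the size of this difference, so the count of 26 is partly set by the choice. The values below are the CDAHFD log2 change minus the FPC one, with 3 advanced and 4 control libraries per diet. Higher on the CDAHFD were Plaur (1.40), Slc16a5 (1.09), Malat1 (0.95), Lgals3 (0.83), Sqle (0.70), Gsta1 (0.67), Mdm2 (0.60), Eif2ak3 (0.57), Hspa5 (0.50), Arntl (0.44), Klf6 (0.41), Tnip1 (0.41), Canx (0.33), Slc2a1 (0.31) and Acvr1 (0.29). Acvr1 was lower in advanced livers of both diets, by less on the CDAHFD, and the other 14 rose on the CDAHFD and had a smaller or negative log2 change on FPC. Lower on the CDAHFD were Sult4a1 (-3.77), Pnpla5 (-3.02), Igf2bp2 (-1.99), Tff2 (-1.18), Scd1 (-1.14), Slc22a7 (-0.59), Tgfbr3 (-0.54), Col15a1 (-0.32) and Ttr (-0.28), and the intronic peaks of Cmah (-2.27) and Camk2b (-1.40).

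In 15 of 239 groups of 4 control values, 1 library stood apart from the other 3, with a gap past Dixon's 95% critical value, which chance alone gives in about 1 of 20 groups. In control library 2 these were Adgrf1 (151 CPM), Cish (270.1 CPM), Hao2 (33 CPM), Sardh (304 CPM), Shmt1 (118 CPM) and Zhx2 (145 CPM). In control library 4 they were Myof (6.62 CPM), Nqo1 (15.2 CPM), Shmt2 (44.7 CPM), the Cmah peak (31.9 CPM) and the Thrsp promoter peak (61.5 CPM). In control library 1 they were Col5a3 (185 CPM), Dab2ip (193 CPM) and Icam1 (36.9 CPM), and in control library 3 Csnk1e (41.7 CPM). Groups of 3 advanced libraries are too small to be examined this way.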

How the results depend on the processing

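No paired analysis was possible because mice were not shared between groups and the replicate numbers only follow the order of deposit. Of 237 named genes and peaks, 202 kept direction and call under every alternative run. The alternatives included DESeq2, limma, 3 scalings in edgeR, a filter at 2 CPM and a term for mouse numbers below 10000. Each of the 7 CDAHFD advanced and control libraries was also left out in turn. The other 35 gave 55 values that lost the call, 13 that gained it and 11 of the opposite sign, with a call on one side or both. Many of the 237 were named for a small p or for libraries that do not overlap. Their stability is thus partly set by that choice and does not speak for other genes. Sums over peaks within 10 kb and over promoter peaks alone gave values for only part of the 237. Each of these sums was scaled on its own counts, so the peaks and the scaling changed together. The part of each in the values from these sums, here and above, was not tested. The sign changes came with fewer peaks summed: over peaks within 10 kb Apob (0.0924), Rb1 (0.0216), Ddx58 (0.3823), Zhx2 (0.1278) and Pecam1 (3.6295), and over promoter peaks alone Ddx58 (0.3307), Zhx2 (0.3045), Shmt1 (0.0054), Lif (-0.0353), Sqle (-0.0943) and Serpina3n (-0.3692). Promoter peaks alone called 3077 genes higher and 3041 lower. A fit of only the 7 libraries called 17643 peaks higher and 17295 lower, and 4127 genes higher and 4305 lower. With scaling set on the peaks, an alternative chosen after seeing the data, 5248 genes were higher and 3781 lower, and 292 genes had the higher change on the CDAHFD in the diet test. Leaving out each CDAHFD library of a comparison in turn gave 16540 to 18115 higher and 16670 to 19069 lower peaks. For genes it gave 3972 to 4591 higher and 4142 to 4516 lower. In the diet test it gave 266 to 486 and 179 to 334 genes, and no FPC library was left out there. Against mild livers it gave 979 to 1437 and 638 to 1256 genes. Among called peaks the share that was higher rose when peaks had to change more than 2-fold: from 73.3% to 81.8% at promoters, 45.2% to 60.5% in first introns, 39.3% to 52.6% in later introns, 32.9% to 40% in exons, 42.6% to 53.2% in intergenic peaks, 30% to 36.1% beyond 100 kb and 48.1% to 56.4% over all peaks. Over the scalings and tools, the genes called lower numbered 4 to 9 in the identity factors, 4 to 9 in the nuclear receptors, 15 to 23 in complement, 7 to 13 in plasma proteins, 4 to 9 in the cell cycle, 9 to 13 in bile acid synthesis, 5 to 8 in interferon factors, 2 to 6 in the circadian clock, 5 to 8 in tetraspanins, 5 to 7 in proteasome subunits, 7 to 12 in hepatocyte markers, 2 to 4 in YAP targets, 2 to 5 in immediate early genes, 0 to 2 in the Notch pathway and 34 to 65 in zinc finger genes. The genes called higher numbered 6 to 11 in the TGF-beta list, 5 to 8 in Kruppel-like factors, 7 to 12 in the pericentral list and 2 to 5 in sterol synthesis. List medians near 0 changed sign with the scaling for sterol synthesis, fatty acid oxidation, plasma proteins, growth hormone, female-biased, lysosomal, tetraspanin, respiratory chain, solute carrier, zinc finger and stellate cell genes. The cause of these shifts was not tested. The planned search for motifs in the peaks was not run. Depth limits peaks of few counts: folds from controls under 1 CPM rest on a handful of reads.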

Other observations

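The 4 control mice differed among themselves at genes of the growth hormone, glucocorticoid, fasting and clock programmes, which were picked after their values were seen. Cish, a feedback inhibitor of growth hormone signalling, held 103, 270.1, 129 and 102 CPM and Socs2, another, 63.5, 98, 63 and 33.3 CPM. Control library 2 was highest at both, and also at Igf1, the main hormone induced by growth hormone, with 192, 416, 245 and 239 CPM. Library 4 was lowest at Bcl6 (292, 389, 346 and 231 CPM) and Cyp2e1, an ethanol-oxidizing P450 (149.5, 225, 175 and 96.9 CPM), and highest at Tat, tyrosine aminotransferase (263, 171, 286 and 446 CPM), and Noct, a rhythmic deadenylase (311, 244, 312 and 473 CPM). Pck1, the gluconeogenic carboxykinase, held 313, 267, 497 and 504 CPM.

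The advanced libraries held 226, 220.1 and 183 CPM at Cish, 316, 232 and 274 CPM at Igf1, 282, 255 and 280.2 CPM at Tat, 362, 282 and 419 CPM at Pck1 and 319.6, 378 and 415 CPM at Noct.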
